A study of Mus musculus with 6 samples.

Results

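The Bcl2 family decides at the outer mitochondrial membrane whether a cell lives or dies. Its pro-survival proteins hold the pore-forming proteins in check. A further class, the BH3-only proteins, carries death signals and binds the pro-survival proteins or drives the pore-formers. Once the membrane is opened, cytochrome c leaves the mitochondrion and caspases are activated. In skeletal muscle the balance matters because loss of laminin attachment, as in muscular dystrophy, is accompanied by fibre death. Much of the family is regulated after transcription, through phosphorylation, cleavage and protein turnover, none of which an expression array measures.

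The 10 genes described here were chosen by name as members of the family, with earlier results of these data known. Every probe set annotated with exactly 1 of their symbols was taken, which gave 33 of the 45037 probe sets that were not controls. No probe set with several symbols held a member. The pro-survival genes Bcl2, Bcl2l1 (Bcl-xL), Bcl2l2 (Bcl-w) and Mcl1 accounted for 19 probe sets, the pore-forming genes Bak1 and Bok for 3, and the BH3-only genes Bad, Bid, Bcl2l11 (Bim) and Bbc3 (Puma) for 11. Of the 33, 26 had a mean above the filter on dim probe sets, a signal of about 21.7, and were tested. They covered all 10 genes. The other 7 are given by their values, with no test. Affymetrix, the maker of the arrays, uses the ending _a_at for probe sets that match several transcripts of a gene, and _s_at or _x_at for those whose probes can also match other genes, so the latter are less certain.

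The study measured calf muscle (gastrocnemius with soleus) of mice that overexpress integrin alpha7, which binds laminin at the fibre surface, and of wild type mice. Both groups were female, 5 weeks old, not fasted and on the SJ6/C57BL6 background, and no further treatment is given. Each genotype had 3 arrays, each carrying RNA pooled from 6 animals, so 18 animals stood behind each genotype. The sources used here do not give the promoter that drives the transgene, the number of transgenic lines or the meaning of the word intronic in the titles of the wild type arrays. The comparison bears on whether more integrin alpha7 goes with other transcript levels of genes that govern cell survival. The pools are biological replicates, and differences between single animals are averaged within them.

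The labels were checked on Itga7 itself. Its signal was 254, 308 and 313 in the wild type arrays and 2498, 2144 and 2072 in the transgenic ones. On the scale used throughout, log2(signal + 16), the difference was 2.87 (adjusted p 1.67e-07, limma). All 8 skeletal muscle markers lay above the filter. Array medians were 34.1 to 38.5, and pairs of arrays correlated at 0.971 to 0.981 over the tested probe sets.

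None of the 10 Bcl2 family genes read here passed the test between transgenic and wild type muscle. Other genes of the family, Bax among them, are not part of this list. After Benjamini-Hochberg adjustment over all 27022 tested probe sets, limma called 0 of the 26 member probe sets at 0.05, against 0.122 percent of all probe sets, and the smallest adjusted p among the members was 0.539. At an unadjusted p under 0.05 there was 1 member probe set, of Bcl2l11, which is 3.85% of the members tested, while 7.85 percent of all tested probe sets reached that level. The 3 arrays of a genotype lay wholly above or below those of the other for 2 member probe sets, or 7.69%, beside 13.4 percent of all probe sets. Differences were positive for 15 and negative for 11, with a median of 0.01 for the members and -0.01 for all probe sets. They ran from -0.53 to 0.29. By role, 8 of the 15 pro-survival probe sets, 1 of the 2 pore-forming ones and 6 of the 9 BH3-only ones had positive differences. Among all tested probe sets 47.4 percent did. Several probe sets of 1 gene count separately here, and the brightest probe set of each gene gave 5 positive and 5 negative differences. In whole muscle, fewer cells of a type and less RNA per cell cannot be told apart.

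**Figure D1:**
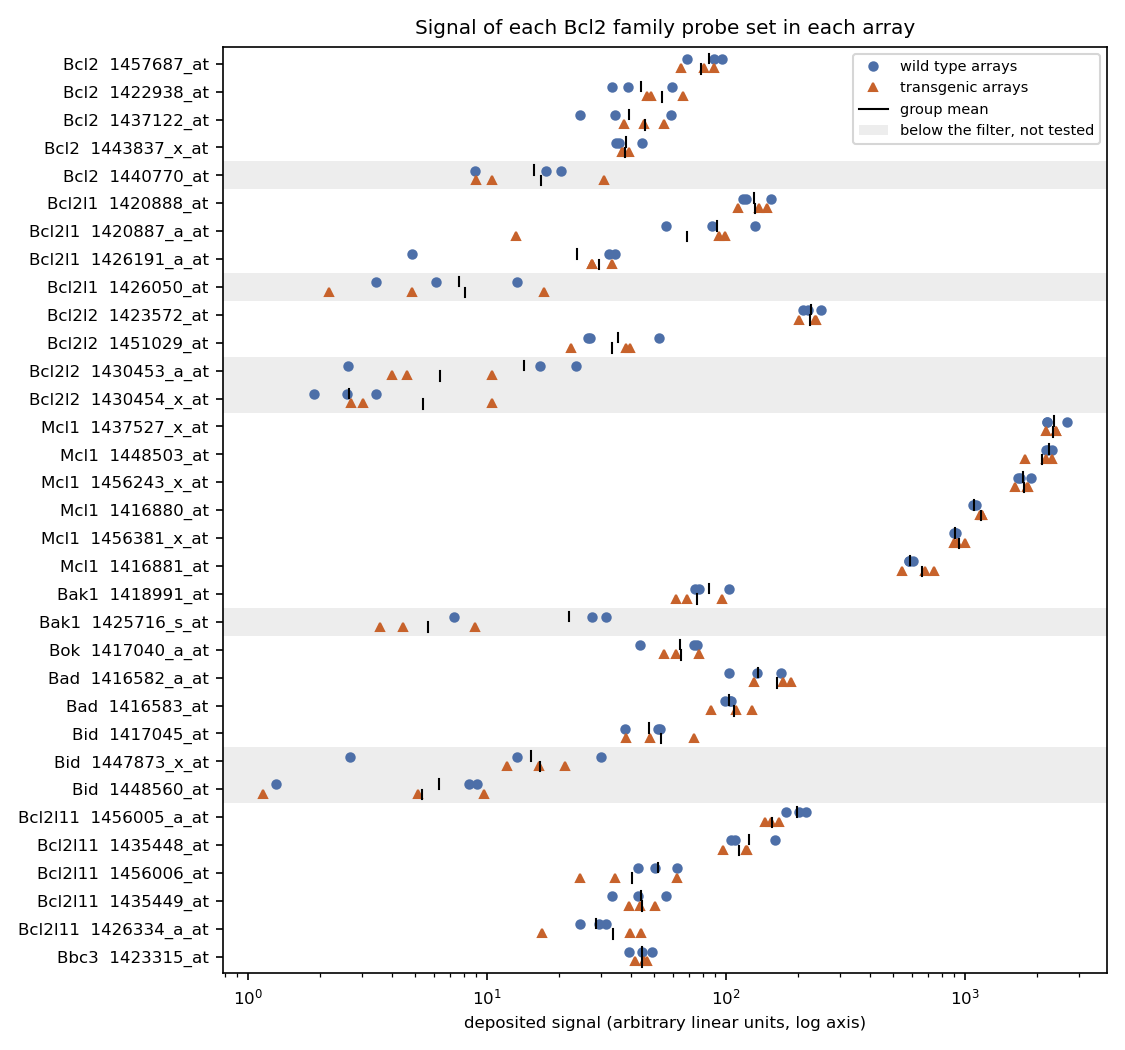
Deposited signal (linear units on a log axis) of all 33 Bcl2 family probe sets, with 3 wild type arrays as circles, 3 transgenic arrays as triangles and short black lines at the group means. The genotypes overlap in all but 2 lines, Mcl1 1416880_at and Bcl2l11 1456005_a_at, and the 7 shaded probe sets lie below the filter and were not tested.

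The size of change that the arrays could have missed differed from gene to gene. The 95% interval of the difference lay wholly within 1 log2 unit of no difference for 24 of the 26 probe sets, and within 1.5-fold either way for 16 of them (61.5%, where all tested probe sets gave 59.5%). The half-width of the interval was 0.14 to 0.24 for the probe sets of Mcl1 and reached 0.98 for 1 of Bcl2l1. The change of Mcl1 was thus bounded more closely than that of the dim transcripts.

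**Figure D2:**
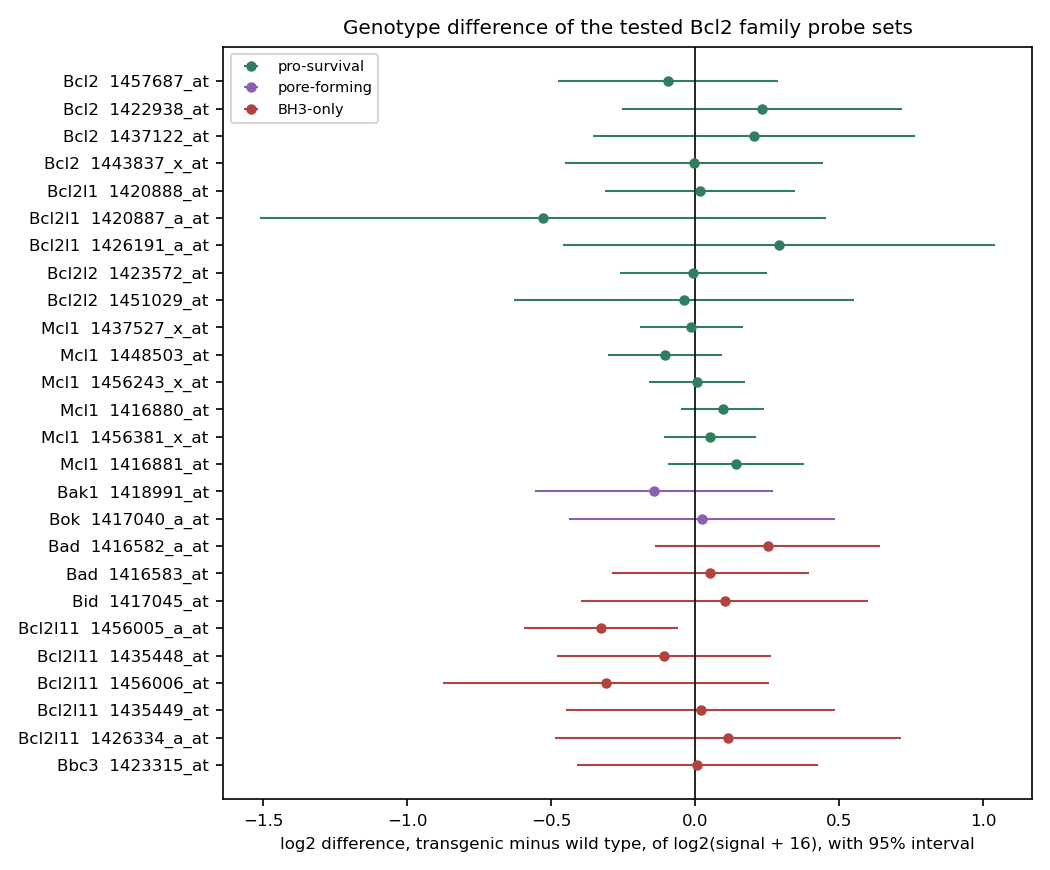
Log2 difference (transgenic minus wild type) of the 26 tested probe sets, with limma's 95% interval as a bar, coloured by role. Every interval but that of Bcl2l11 probe set 1456005_a_at crosses the line of no difference, and those of Mcl1 are the narrowest.

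Among the pro-survival genes, Mcl1, whose short-lived protein sequesters Bak1 and Bim, gave signals of 545 to 2661 over its 6 probe sets. On probe set 1416880_at the wild type arrays read 1109, 1088 and 1081 and the transgenic arrays 1179, 1175 and 1150. These arrays do not overlap, and every transgenic array is the higher. The fold was 1.07, with a 95% interval of 0.967 to 1.18, an SE of 0.07 on the log2 scale and an adjusted p of 0.781 in limma. On 1448503_at, by contrast, the wild type arrays read 2228, 2309 and 2167 and the transgenic ones 2315, 2174 and 1771. There the genotypes overlapped, transgenic replicate 3 lay lowest, and the fold was 0.929 (0.810 to 1.07).

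The other 4 Mcl1 probe sets overlapped between genotypes as well. Their log2 differences were -0.01 for 1437527_x_at, 0.01 for 1456243_x_at, 0.05 for 1456381_x_at and 0.14 for 1416881_at. For 1416881_at the transgenic arrays spread more widely, at 681, 545 and 744, than the wild type arrays, at 579, 582 and 607. No Mcl1 interval reached beyond 0.810-fold at its lower end or 1.30-fold at its upper end. The probe sets of this gene did not move together across arrays: over 15 pairs of them the correlation across the 6 arrays ran from -0.64 to 0.92, with a median of 0.30. This is a description over arrays that share both genotype and scaling.

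Bcl2, the founding pro-survival gene, was dim. On probe set 1422938_at its signal was 38.8, 33.4 and 59.3 in wild type and 48.3, 46.6 and 66.1 in transgenic muscle. Replicate 3 was the highest array of each genotype, and the groups overlapped. The fold was 1.18 with an interval of 0.839 to 1.65 (adjusted p 0.842, limma). The log2 difference of 0.23 became 0.11 without wild type replicate 2 or transgenic replicate 3, and 0.41 without wild type replicate 3. The mean of 1457687_at was 84.5 ± 14.1 in the wild type arrays and 78.1 ± 12.6 in the transgenic ones (SD, n = 3 each), a fold of 0.937. The log2 differences of 1437122_at and 1443837_x_at were 0.20 and -0.00. The former was 0.00 without wild type replicate 3, 0.10 without transgenic replicate 1 and 0.45 without wild type replicate 2, and 0.00 in the first hybridisation round against 0.61 in the second. Of the Bcl2 probe sets 1440770_at lay below the filter, with signals of 8.92 to 30.9. None of the 4 tested probe sets separated the genotypes, and their signs were mixed.

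Bcl2l1, whose long product Bcl-xL is the other widely acting survival protein, showed the least even readings. On 1420888_at the wild type arrays gave 121, 153 and 117 and the transgenic arrays 112, 148 and 137, a fold of 1.01 (0.805 to 1.27). On 1420887_a_at the wild type arrays gave 132, 86.9 and 56.1 and the transgenic arrays 93.3, 98.8 and 13.2. Transgenic replicate 3 stands far below the other 5 arrays on this probe set. The difference of -0.53 (SE 0.45, adjusted p 0.819 in limma) became 0.12 without that array, was -0.27 without wild type replicate 1, and was -0.14 in the first round of hybridisation, which did not hold transgenic replicate 3.

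On a dimmer Bcl2l1 probe set, 1426191_a_at, the odd array was a wild type one. The wild type arrays read 32.3, 4.84 and 34.3 and the transgenic arrays 33.3, 27.3 and 27.5. The difference of 0.29 (SE 0.34) turned to -0.12 without wild type replicate 2. The fourth probe set, 1426050_at, lay below the filter with signals of 2.18 to 17.3. The tested probe sets of this gene differ in sign, and the largest difference in each direction changed sign without 1 array.

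Bcl2l2, which encodes the survival protein Bcl-w, was nearly level. On 1423572_at the wild type arrays read 209, 248 and 219 and the transgenic ones 237, 201 and 236. The means were 225 ± 20.4 and 224 ± 20.5 (SD, n = 3 each), a fold of 0.996 with an interval of 0.834 to 1.19. Its dimmer probe set 1451029_at gave 0.973-fold (0.647 to 1.46). A further pair, 1430453_a_at and 1430454_x_at, lay below the filter with group means of at most 14.3.

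The pore-forming genes gave no call either. Bak1, one of the proteins that perforate the mitochondrial membrane, read 73.8, 76.7 and 103 in wild type and 61.7, 96.1 and 68.4 in transgenic muscle on 1418991_at. The arrays overlapped, at 0.905-fold (0.679 to 1.21, adjusted p 0.897 in limma). The log2 difference of -0.14 ranged from -0.30 without transgenic replicate 2 to -0.02 without wild type replicate 3, and was 0.03 in the first hybridisation round and -0.50 in the second. A second Bak1 probe set, 1425716_s_at, fell short of the filter, with wild type signals of 31.4, 7.24 and 27.5 and transgenic signals of 3.56, 8.92 and 4.44. Its log2 difference was -0.75, and the genotypes overlapped through wild type replicate 2. With no filter its p in limma was 0.0309 unadjusted and 0.694 adjusted. Bok, a Bak-like protein found largely at the endoplasmic reticulum, gave 43.4, 73.1 and 75.7 against 61.4, 77.1 and 54.7, a fold of 1.02 (0.738 to 1.40).

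Of the BH3-only genes, Bcl2l11 gave the smallest p of all members. Bim, its product, binds every major pro-survival protein. On 1456005_a_at the signal was 177, 217 and 202 in the wild type arrays and 145, 166 and 153 in the transgenic arrays. Each transgenic array lay below each wild type array. The group means were 199 ± 20.0 and 155 ± 10.7 (SD, n = 3 each), a fold of 0.797 with an interval of 0.662 to 0.959. The log2 difference was -0.33 (SE 0.12), with a p in limma of 0.0206 unadjusted and 0.539 adjusted, so it did not pass. The difference kept its sign in all 19 alternatives, from -0.40 to -0.26. As the genotypes do not overlap here, leaving out an array, reading a round alone or changing the offset could not turn the sign. Other filters, no trend and blocks by replicate number or round leave the difference itself unchanged. The adjusted p in limma ran from 0.132 to 0.800 over the 18 alternatives that gave one. In the first round of hybridisation the difference was -0.31 and in the second -0.37.

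The other 4 tested Bcl2l11 probe sets overlapped between genotypes. Probe set 1456006_at read 50.6, 42.8 and 62.2 in wild type and 24.5, 34.3 and 62.5 in transgenic muscle. Its log2 difference was -0.31, close to that of 1456005_a_at, but with an SE of 0.26, and transgenic replicate 3 matched the highest wild type array. Unlike 1456005_a_at it ranged widely when 1 array was left out, from -0.58 without transgenic replicate 3 to -0.10 without transgenic replicate 1, and was 0.01 in the second hybridisation round. For 1435448_at it was -0.11, for 1435449_at 0.02 and for 1426334_a_at 0.11. The readings of this gene therefore disagree in sign, and over 10 pairs of its probe sets the correlation across the 6 arrays had a median of 0.01. The sources used here do not say which transcripts of the gene each probe set reads.

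**Figure D3:**
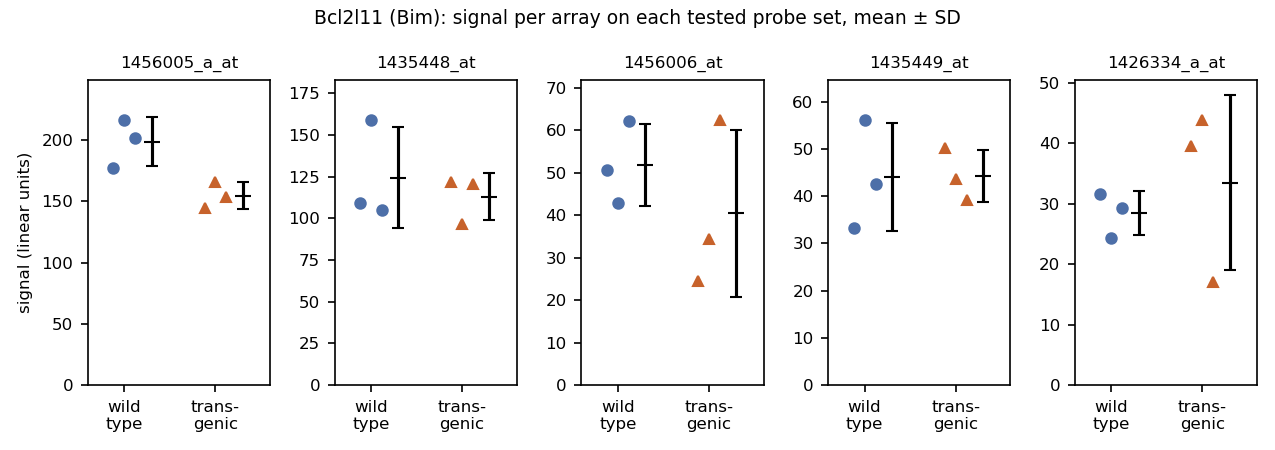
Signal (linear units, axes from 0) of the 5 tested Bcl2l11 probe sets in each array, wild type as circles and transgenic as triangles, with mean ± SD (n = 3) in black. The genotypes separate on 1456005_a_at only, at 177 or more in wild type and 166 or less in transgenic muscle.

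No marker of the cell type lists passed the test, but 2 summed marker signals did not overlap between the genotypes. The summed signal of 7 endothelial markers was 1720 to 1824 in the wild type arrays and 1464 to 1598 in the transgenic arrays. None of the 7 passed the test, 6 of them had negative differences, and none was at 0. The summed signal of the 8 skeletal muscle markers was 161300 to 165000 in the wild type arrays and 148700 to 154700 in the transgenic arrays. Of the 8, 7 had negative differences and none was called. These markers lie at percentiles 99.9 to 100 of mean signal and include the highest signal of every array. That signal was 23547 to 23952 in the wild type arrays and 21386 to 22469 in the transgenic ones. The part of the upper end of the signal scale in this difference was not tested. The summed lymphocyte markers overlapped, at 580 to 761 in wild type and 653 to 808 in transgenic muscle over 9 measured genes, of which Cd4 and Cd3e lay below the filter and none at 0. The part of these cells in the Bcl2l11 reading was not tested. The other marker sums (macrophage, neutrophil, adipocyte, erythroid, smooth muscle, fibroblast and nerve) overlapped between genotypes.

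Bad, which promotes death until kinases such as Akt phosphorylate it, leaned upward on 1 probe set. On 1416582_a_at the wild type arrays read 103, 135 and 169 and the transgenic ones 172, 131 and 186. The wild type spread covers most of the range, and the groups overlapped. The fold was 1.19 with an interval of 0.908 to 1.56 (adjusted p 0.787, limma), and the log2 difference of 0.25 shrank to 0.09 without wild type replicate 1. It grew to 0.41 without wild type replicate 3 and to 0.39 without transgenic replicate 2. The second probe set, 1416583_at, had means of 103 ± 3.30 for wild type and 108 ± 21.0 for transgenic arrays (SD, n = 3 each), 1.04-fold (0.818 to 1.31).

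Bid, which links death receptors to mitochondria once caspase-8 cleaves it, read 37.7, 52.6 and 51.8 in wild type and 47.9, 73.5 and 38.0 in transgenic muscle on 1417045_at. The arrays overlapped at 1.07-fold (0.760 to 1.52). Its other probe sets, 1447873_x_at and 1448560_at, lay below the filter, with group means of 5.34 to 16.6. Bbc3, the p53 target Puma, gave 44.3, 49.0 and 39.3 against 45.3, 41.3 and 46.6, a fold of 1.005 (0.752 to 1.34). Neither gene separated the genotypes.

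**Figure D4:**
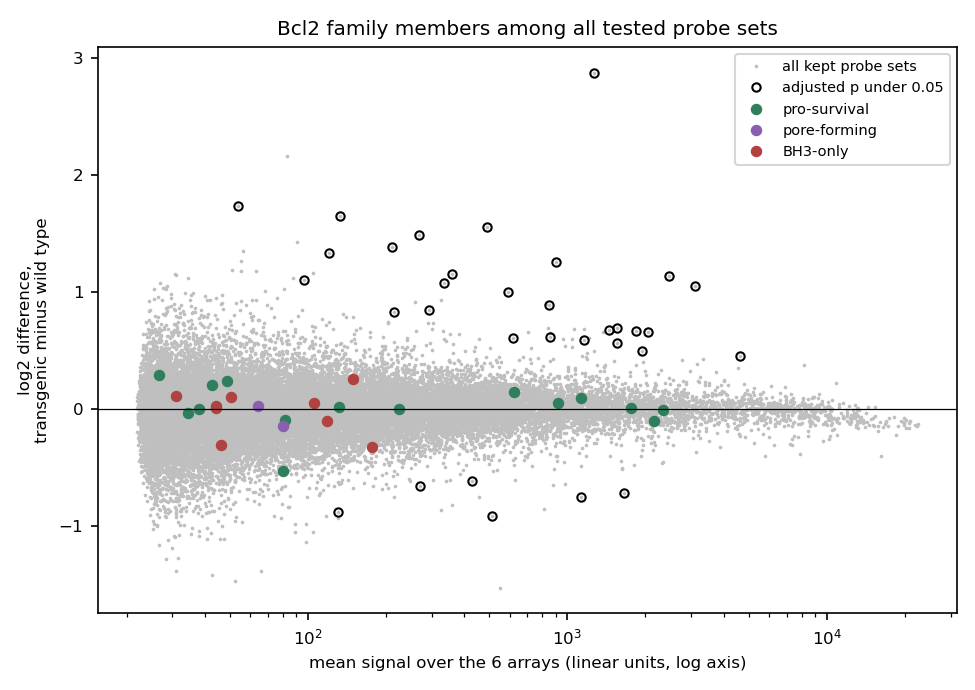
Log2 difference against mean signal (log axis) for all 27022 tested probe sets in grey, with the 33 that passed an adjusted p of 0.05 as open circles and the 26 Bcl2 family probe sets coloured by role. The members lie within the grey band, from -0.53 to 0.29, and none is circled.

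The wider apoptosis pathway was read from 5 lists of other genes, 77 genes in all, of which 66 were measured by a probe set with a single symbol and 58 had 1 above the filter. Of their 138 tested probe sets limma called 0 in either direction. With no adjustment, p was under 0.05 for 4 higher and 3 lower ones, beside 3.51 percent and 4.34 percent of all probe sets. Differences were positive for 69 and negative for 69, with a median of 0.00.

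The list of other Bcl2 relatives held 16 genes, of which 10 were measured by a probe set with a single symbol. Of these, 8 probe sets of 6 genes were tested, 2 with positive and 6 with negative differences. The BH3-only gene Bik read 40.8, 40.2 and 20.6 in the wild type arrays and 21.1, 19.0 and 8.46 in the transgenic ones on 1449836_x_at. The log2 difference was -0.63 (adjusted p 0.647). On 1420363_at Bik read 29.4, 26.3 and 45.6 against 15.4, 6.33 and 25.4, with every transgenic array the lower. Its difference of -0.68 did not pass either, with a p in limma of 0.0473 unadjusted and 0.631 adjusted. A Bik probe set below the filter, 1420362_a_at, gave 0.51, with every transgenic array the higher. Bcl2l13, a mitochondrial outer membrane relative, gave -0.22 on 1429539_at and 0.06 on 1424406_at.

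Regulators of the family were represented by 80 tested probe sets of 25 genes. The smallest p among their brightest probe sets belonged to Fbxw7, a ubiquitin ligase subunit that marks Mcl1 for degradation. Its signal was 353, 363 and 402 in wild type and 305, 323 and 313 in transgenic muscle. Every transgenic array was lower, by 0.24 on the log2 scale as a mean, but the adjusted p was 0.580 in limma and a second probe set gave -0.06. Ywhag, a 14-3-3 protein of the kind that binds phosphorylated Bad, gave 0.13 on its brightest probe set and -0.08 on the next.

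Downstream of the mitochondria, 21 probe sets of 12 apoptosome and caspase genes were tested. The executioner caspase gene Casp6 read 60.5, 72.3 and 69.7 in wild type and 89.7, 91.9 and 108 in transgenic muscle. The arrays do not overlap, but the difference of 0.43 was not called (adjusted p 0.525, limma). A dimmer Casp6 probe set below the filter gave -0.37, with every transgenic array the lower. Dffa, the inhibitor of the caspase-activated DNase, gave 0.19 with an adjusted p of 0.676, and -0.09 on a dimmer probe set. Among 12 probe sets of the inhibitor of apoptosis genes, Birc6 gave -0.19 and Birc5 (survivin) 0.22 on their brightest ones, with adjusted p of 0.808 and 0.863. The other 3 tested probe sets of Birc6 gave 0.13, -0.27 and -0.43. Among 17 probe sets of the death receptor route, the adaptor Traf2 gave 0.25 and the receptor Tnfrsf21 0.19, with adjusted p of 0.681 and 0.737 in limma. A second Tnfrsf21 probe set gave -0.12.

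The genes whose pattern over the 6 arrays was most like that of the member probe set with the highest signal, Mcl1 1437527_x_at, were Fastkd2, Snai3 and Lpgat1. Their Pearson correlations were 0.991, 0.986 and 0.985. With only 6 arrays, 176 tested probe sets correlated above 0.9 with it, and the arrays share scaling and genotype, so these names describe likeness in this set only.

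**Figure D5:**
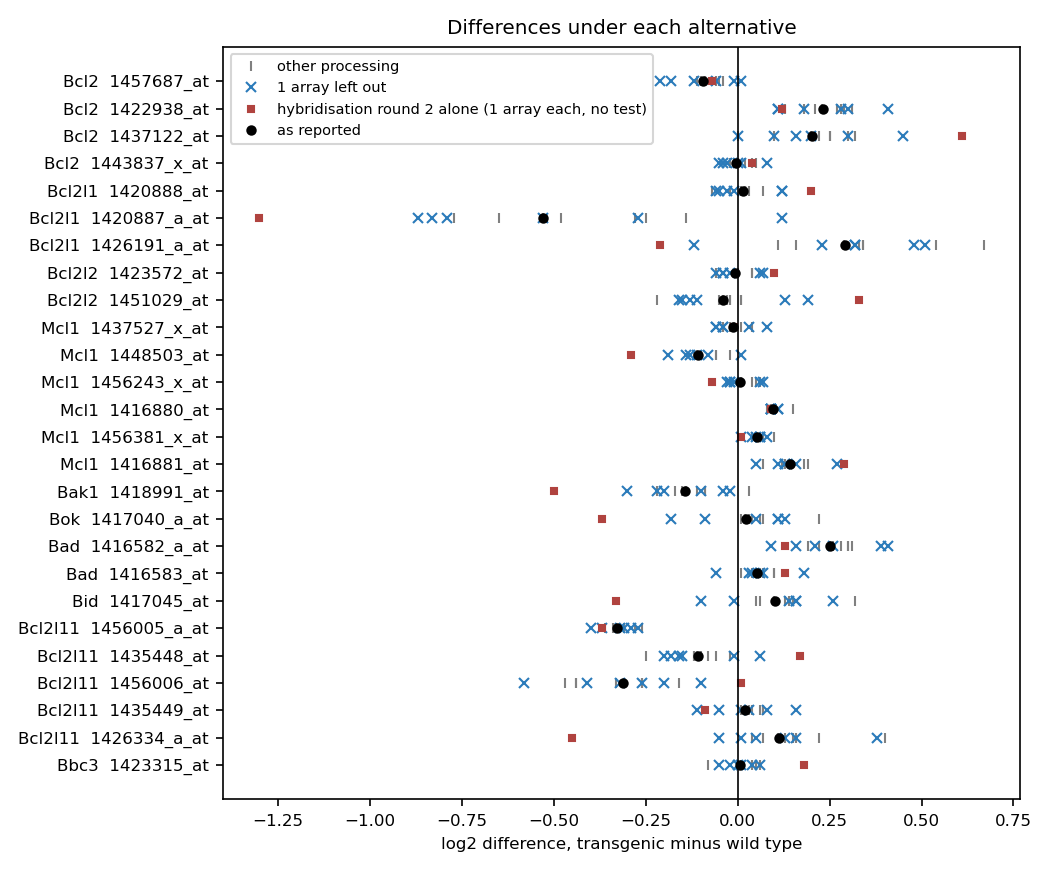
Log2 difference of each tested member probe set as reported (black) and under the alternatives, which are other processing (grey), 1 array left out (blue crosses) and the second hybridisation round alone (red squares). The Bcl2l11 probe set 1456005_a_at stays between -0.40 and -0.26, while Bcl2l1 1420887_a_at runs from -1.30 to 0.12.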

How the data were processed

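RNA of 6 pools was hybridised to 6 Affymetrix Mouse430_2 arrays. The authors deposited linear intensity values, 1 per probe set, and the submitters' processing notes name GCOS 1.1.1. The algorithm behind them is not stated there. Each array's mean after trimming 2% at either end was 150.0, so changes common to most genes are scaled away. Detection calls were not used.

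Of 45101 rows, 64 controls were left out. Signals were taken as log2(signal + 16), which understates changes of dim transcripts, and all folds are on this scale. The 27022 probe sets with a mean above the 40th percentile entered a linear model of genotype in limma 3.58.1 (R 4.3.3), with variances moderated along an intensity trend. Tests were two-sided, and Benjamini-Hochberg adjustment covered every tested probe set, with a threshold of 0.05. The fit was tried on simulated arrays with independent noise and changes larger than most differences of the members. That trial does not show how often changes as small as theirs are found. Symbols came from the platform's annotation, updated to RefSeq (GRCm38.p6). Named are all members, the 2 genes of each pathway list whose brightest probe set had the smallest p, any that passed, and 3 genes most like a member. Members, lists and tests were chosen with earlier results of these data known. The number of arrays limits the precision. Tried as alternatives were offsets of 1 and 64, quantile normalization, equal medians, no filter or one at the 60th percentile, no trend and array weights. Replicate number, hybridisation round (2) and fluidics module (4, each with arrays of 1 genotype) served as blocks. Rounds were read alone, and every array was left out in turn. The rounds were set here, from a gap between the hybridisation times in the run records.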

Additional observations from a re-analysis of the deposited data

How the results depend on the processing

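Of the 26 tested member probe sets, none passed in any of the 18 alternatives with a test, by limma at an adjusted p of 0.05, and no pathway probe set passed in them either. At an unadjusted p under 0.05 the alternatives gave 0 to 2 member probe sets, beside 6.37 to 16.9 percent of all tested probe sets. The smallest adjusted p of a member was 0.132, for Bcl2l11 1456005_a_at with module as a random block, whose estimated correlation was -0.44. As each module held arrays of 1 genotype, a negative correlation narrows the errors of the genotype difference. The low p-values of that setting rest on this estimate, and 16.9 percent of all tested probe sets had an unadjusted p under 0.05 there. The median over the members moved from 0.01 to 0.06 with equal array medians, where the median of all probe sets was 0.04, and lay between -0.02 and 0.06 when 1 array was left out, the latter without replicate 2 of the wild type. Of all probe sets 33 passed; 50 did with equal array medians, 17 with no filter, 1 without the intensity trend, 297 with the module block and 18 to 39 when 1 array was left out. The arrays whose absence moved that count by over 1.5 times were replicates 1 (19) and 2 (18) of the wild type.

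With the replicate number as a block (replicate block), 0 member probe sets passed and the count over all probe sets was 36. The correlation of same-numbered arrays' deviations from their group means was 0.00, 0.06 and 0.05, so the numbers were not treated as pairing the samples.

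Other filters, no trend and blocks by replicate number or hybridisation round leave the log2 difference unchanged. Its sign could not turn in those settings. With them counted, the sign of the log2 difference held in 424 of 484 values and turned in 60, all uncalled. Of the 26 probe sets, 7 never turned. The cause of the turns was not tested. With array weights the difference was -0.02 for Bcl2l1 1420888_at, 0.01 for Mcl1 1437527_x_at and 0 (just below it before rounding) for Bbc3 1423315_at. With equal array medians it was 0.05 for Bcl2 1443837_x_at, 0.04 for Bcl2l2 1423572_at, 0.01 for Bcl2l2 1451029_at and 0.04 for Mcl1 1437527_x_at. With the module as a random block it was 0.02 for Bcl2 1443837_x_at, 0.04 for Bcl2l2 1423572_at and -0.02 for Mcl1 1456243_x_at. In round 1 alone it was -0.07 for Bcl2l1 1420888_at, 0.03 for Bak1 1418991_at and -0.08 for Bbc3 1423315_at. In round 2 alone, with 1 array of each genotype and no test, it was 0.04 for Bcl2 1443837_x_at, -0.21 for Bcl2l1 1426191_a_at, 0.10 for Bcl2l2 1423572_at, 0.33 for Bcl2l2 1451029_at, -0.07 for Mcl1 1456243_x_at, -0.37 for Bok 1417040_a_at, -0.33 for Bid 1417045_at, 0.17 for Bcl2l11 1435448_at, 0.01 for Bcl2l11 1456006_at, -0.09 for Bcl2l11 1435449_at and -0.45 for Bcl2l11 1426334_a_at. With quantile normalization it was 0.04 for Bcl2 1443837_x_at, 0.01 for Bcl2l2 1451029_at and -0.02 for Mcl1 1456243_x_at. When 1 array was left out, it ran from -0.21 to 0.01 for Bcl2 1457687_at, -0.05 to 0.08 for Bcl2 1443837_x_at, -0.06 to 0.12 for Bcl2l1 1420888_at, -0.87 to 0.12 for Bcl2l1 1420887_a_at, -0.12 to 0.51 for Bcl2l1 1426191_a_at, -0.06 to 0.07 for Bcl2l2 1423572_at, -0.16 to 0.19 for Bcl2l2 1451029_at, -0.06 to 0.08 for Mcl1 1437527_x_at, -0.19 to 0.01 for Mcl1 1448503_at, -0.03 to 0.07 for Mcl1 1456243_x_at, -0.18 to 0.13 for Bok 1417040_a_at, -0.06 to 0.18 for Bad 1416583_at, -0.10 to 0.26 for Bid 1417045_at, -0.20 to 0.06 for Bcl2l11 1435448_at, -0.11 to 0.16 for Bcl2l11 1435449_at, -0.05 to 0.38 for Bcl2l11 1426334_a_at and -0.05 to 0.06 for Bbc3 1423315_at. The 7 dim member probe sets below the filter are not among these values, and whether they rise above background was not tested.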

Other observations

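Among genes of the pathway lists, some tested probe sets that were not the brightest of their gene had larger differences than any tested member. Probe sets below the filter are left aside, among them Tradd 1439910_a_at at -1.01 and Diablo 1425768_at at -0.67. Besides that of Bik given above, the tested ones were those of Becn1, Btrc and Tnfsf10. These and Ddit3, below them in size, were singled out after their values were seen. Becn1, the autophagy protein beclin that Bcl2 binds, read 61.7, 24.2 and 57.3 in wild type and 105, 75.8 and 107 in transgenic muscle on 1435219_x_at. The log2 difference of 0.86 had an adjusted p of 0.378 in limma, while the brightest Becn1 probe set gave 0.10 and the gene's other 3 tested probe sets 0.11, -0.07 and -0.18. Btrc, a ubiquitin ligase subunit, gave -0.80 on 1443142_at, 0.32 on its brightest probe set and -0.41 and -0.50 on its other tested ones. The death ligand gene Tnfsf10 gave 0.75 on 1420412_at, from a wild type mean of 15.4, and -0.01 on its brightest one. Ddit3, the stress-induced factor CHOP that is known to raise Bim and Puma transcription, read 225, 212 and 284 in wild type and 283, 252 and 310 in transgenic muscle on 1417516_at. Its difference of 0.22 had an adjusted p of 0.732, and its second probe set gave 0.27. None of these passed the test.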
